A study of Homo sapiens with 10 samples.

Results

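The genes described here are 7 human genes for abundant structural noncoding RNAs: RN7SL1, RN7SL2, SNORD3A, RN7SK, RMRP, RPPH1 and TERC. They were chosen by symbol, each matched to its Ensembl identifier, out of 58395 genes listed with a count in each library. The libraries came from HeyA8, a human ovarian cancer line, transfected with short interfering RNA duplexes at 10 nM. Names such as siGGGGGC give positions 2 to 7 of the guide strand, the seed through which a guide finds messenger RNAs. siGGCAGU carries the seed of miR-34a-5p, and siNT1 served as the non-targeting control. The sample labels say siMxy and si34a, read here as siGGGGGC and siGGCAGU from the study's description. The 10 libraries form 5 groups of 2: siNT1 at 24 h, siGGGGGC at 24 h, siNT1 at 48 h, siGGCAGU at 48 h and siGGGGGC at 48 h. All groups were transfected with a duplex whose passenger strand was chemically modified, so there is no untransfected group, and the cells at 48 h had their medium changed at 24 h. Each group had duplicate wells, and p-values therefore measure the spread between wells and libraries only. The data bear on how the counts of these RNAs stood under the different seeds and times.

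These RNAs work as RNAs and are not translated. RN7SL1 and RN7SL2 encode 7SL, the scaffold of the signal recognition particle, which brings nascent secretory and membrane proteins to the endoplasmic reticulum. SNORD3A encodes U3, a box C/D small nucleolar RNA needed to process the precursor of ribosomal RNA. RN7SK encodes 7SK, which holds the elongation kinase P-TEFb inactive. RMRP and RPPH1 are the RNA subunits of RNase MRP and RNase P, endonucleases that process ribosomal and transfer RNA precursors, and TERC is the template RNA of telomerase. The 7SL, 7SK, RMRP and RPPH1 genes are transcribed by RNA polymerase III, whereas U3 and TERC genes are transcribed by RNA polymerase II in human cells.

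The 7SL genes are nearly identical, which matters because a short read from one of them often matches another equally well. Gene positions and transcripts are from the hg38 genome with GENCODE release 44 gene models. RN7SL2 lies at chr14:49862550-49862849 on the minus strand, RN7SL1 at chr14:49586580-49586878 on the plus strand and RN7SL3 at chr14:49853616-49853914 on the minus strand. Of 299 aligned bases, RN7SL2 shared 295 with RN7SL1 and 288 with RN7SL3. The U3 copies were as close. SNORD3A, annotated over 699 bases at chr17:19188016-19188714 on the plus strand, shared 580 of 581 aligned bases with SNORD3C, 694 of 699 with SNORD3B-1, 687 of 690 with SNORD3B-2 and 214 of 217 with SNORD3D. Counts of all these genes are therefore uncertain where the counting could split or drop shared reads.

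Sequences are shown, 5′ to 3′ along the transcript, where a seed match lies in a member. The reverse complements of the seeds, GCCCCC (siGGGGGC), ACTGCC (siGGCAGU) and CGACTA (siNT1), were searched along the annotated transcripts. SNORD3A held ACTGCC at positions 143 to 148, counted from 1 at its 5′ end, shown in capitals in its first 217 bases.
SNORD3A: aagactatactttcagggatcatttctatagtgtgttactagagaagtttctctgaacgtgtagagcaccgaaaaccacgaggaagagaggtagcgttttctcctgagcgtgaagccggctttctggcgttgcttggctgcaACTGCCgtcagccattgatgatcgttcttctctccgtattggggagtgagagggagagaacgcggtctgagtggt
TERC, at chr3:169764520-169765060 on the minus strand, held GCCCCC at positions 233 to 238 and ACTGCC at positions 289 to 294, shown in capitals in 30 bases of its transcript each.
TERC GCCCCC: gtcgcctgcccaGCCCCCgaaccccgcctg
TERC ACTGCC: ccggaggcacccACTGCCaccgcgaagagt
No other member held any of the 3 words. Among 21296 noncoding transcripts of 250 to 750 bases, 11.87% held GCCCCC, 14.99% held ACTGCC and 1.484% held CGACTA. A match of this kind is a description of the sequence and not evidence of binding.

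Total counts ranged from 19781445 to 42428986 per library, and protein-coding genes took 60.8% to 72.7% of them. POLR2E and POLR2K, subunits shared by RNA polymerases, were low with siGGGGGC. The study had picked both as abundant genes strongly lowered by siGGGGGC in HeyA8 cells at 24 h. Their falls and p-values here are therefore no independent test. POLR2E fell by 1.65 at 24 h and by 1.99 at 48 h on the log2 scale (adjusted p = 2.69e-08 and 1.23e-10, edgeR's quasi-likelihood test with Benjamini-Hochberg adjustment), and POLR2K by 1.85 and 1.58 (adjusted p = 1.07e-07 and 3.24e-08, edgeR). Of the epithelial markers, KRT8 was at 75.0 to 354 CPM, the count scaled to library size, KRT18 at 91.0 to 296, PAX8 at 3.49 to 32.8 and WT1 at 1.46 to 4.92, whereas KRT19, EPCAM and MUC16 were at most at 1.70, 1.47 and 1.16. With siGGGGGC at 48 h KRT8, KRT18, PAX8 and WT1 fell by 1.48, 1.4, 2.71 and 1.31 (largest adjusted p = 4.71e-05, edgeR). The immune, endothelial and liver markers PTPRC, CD3E, CD68, PECAM1, VWF and ALB were at most at 0.716. RNA5S9, a 5S ribosomal RNA gene, had 0 counts in both siNT1 libraries at 24 h and 43 and 68 with siGGGGGC. At 48 h it had 8 and 1 counts with siNT1, 67 and 7 with siGGCAGU and 7 and 9 with siGGGGGC. The part of these differences in the results that follow was not tested. Libraries of 1 group differed by more than sampling noise: chi-square divided by its degrees of freedom was 2.48 (siNT1) and 3.92 (siGGGGGC) at 24 h, and 37.7 (siNT1), 50.8 (siGGCAGU) and 13.3 (siGGGGGC) at 48 h.

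Of the 7 members, 4 were listed at 0 in all 10 libraries: RN7SL1 (ENSG00000276168), RN7SK (ENSG00000283293), RMRP (ENSG00000277027) and RPPH1 (ENSG00000277209). A count of 0 allows up to 0.152 CPM in the smallest library and 0.0707 in the largest, for counting error only. These zeros cannot be read as silent genes, because all 37 genes of the mitochondrial genome, which every such cell uses, were also listed at 0, as were 16937 genes in total. Several members share their place with another listed gene. For RMRP a further listed identifier (ENSG00000269900), which GENCODE release 44 does not hold, was also at 0. All 328 bases of RN7SK lie in the exons of a second 7SK entry (ENSG00000202198), also at 0, all 333 bases of RPPH1 lie in the exons of a lncRNA (ENSG00000259001) with 0 to 1 counts, and RN7SL1 lies within the span of RPS29 on the opposite strand, with no overlap of exons. All 300 bases of RN7SL2 lie in the exons of a lncRNA on the same strand (ENSG00000282885, 0 to 8 counts). RN7SL2 itself had 2736643 to 5069938 counts. The overlaps are from the gene models used here, which may differ from those used in the counting. How an overlap acted on a count was therefore not tested. Whether shared reads were dropped in the counting was not tested. Other loci with 7SK-like sequence, 293 pseudogenes of which 131 had a count, took 0.00325% to 0.00615% of a library.

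TERC (ENSG00000270141) had 0 to 7 counts per library and did not pass the filter on low counts. The siNT1 libraries had 2 and 1 counts at 24 h and 0 and 2 at 48 h, the siGGCAGU libraries 2 and 7, and the siGGGGGC libraries 1 and 2 at 24 h and 2 and 1 at 48 h. TERC was not tested. In GENCODE release 44, 438 of its bases also lie in the exons of a second entry (ENSG00000277925), which was at 0.

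The remaining members, RN7SL2 (ENSG00000274012) and SNORD3A (ENSG00000263934), passed the filter and were the 2 most counted genes of every library. Their mean shares of a library were 14.6% and 12.5%, and the next gene, the ferritin light chain FTL, took 0.604%. Together they took 27.8% and 28.3% of the siNT1 libraries and 31.1% and 30.8% of the siGGGGGC libraries at 24 h. At 48 h they took 19.8% and 23.9% with siNT1, 32% and 24.2% with siGGCAGU, and 28.1% and 24.0% with siGGGGGC. Because these shares are so large, levels are also given per 1000 protein-coding counts, scaled by TMM factors (the mRNA scale). For less abundant genes the same scale is given as mRNA-scaled CPM. Both genes were picked out with these counts known, so their levels and differences are a description without a test. No spike-in is named in the sources used here, so more of a small RNA and less messenger RNA per cell cannot be told apart.

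By group mean, RN7SL2 took its highest share with siGGGGGC at 48 h and its lowest with siNT1 at 48 h. At 24 h it took 13.9% and 14.6% of the siNT1 libraries and 15.9% and 16.0% of the siGGGGGC libraries. At 48 h it took 9.76% and 11.9% with siNT1, 18% and 12.5% with siGGCAGU, and 18.1% and 14.9% with siGGGGGC. Both siRNA groups lay above the siNT1 libraries of the same time, although the lower siGGCAGU library was close to the higher siNT1 library. These shares rest on 2736643 to 5069938 counts, so their 95% Wilson intervals are narrow (9.75% to 9.77% for the lowest) and cover counting error only.

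On the mRNA scale the siNT1 libraries held 222 and 239 per 1000 of RN7SL2 at 24 h and 123 and 172 at 48 h. The siGGGGGC libraries held 268 and 275 at 24 h and 279 and 214 at 48 h, and the siGGCAGU libraries 291 and 174. The groups did not overlap in the comparisons with siNT1, but the lower siGGCAGU library lay just above the higher siNT1 library. The log2 difference from siNT1 was 0.24 ± 0.24 (SE, edgeR) with siGGGGGC at 24 h, 0.74 ± 0.24 with siGGGGGC at 48 h and 0.66 ± 0.24 with siGGCAGU at 48 h, each over n = 2 libraries a group. The last value fell to 0.24 without replicate 1 of siGGCAGU at 48 h, and the siGGGGGC value at 48 h to 0.48 without replicate 1 of siNT1 at 48 h. siNT1 at 48 h differed from 24 h by -0.65 ± 0.24, and by -0.43 without that same library. Between siGGGGGC and siGGCAGU at 48 h the groups overlapped, and the difference of 0.08 ± 0.24 ran from -0.24 to 0.50 when a library of siGGCAGU was left out.

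SNORD3A did not follow RN7SL2 at 48 h. It took 13.8% and 13.7% of the siNT1 libraries and 15.2% and 14.8% of the siGGGGGC libraries at 24 h. At 48 h it took 10.1% and 12% with siNT1, 14.0% and 11.7% with siGGCAGU, and 10.0% and 9.18% with siGGGGGC. siGGGGGC thus had the highest shares at 24 h and the lowest at 48 h. On the mRNA scale SNORD3A was at 221 and 225 per 1000 with siNT1 and at 256 and 255 with siGGGGGC at 24 h. At 48 h it was at 127 and 172 with siNT1, 226 and 163 with siGGCAGU, and 154 and 132 with siGGGGGC. The siGGGGGC and siNT1 groups overlapped at 48 h on this scale.

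The log2 difference of SNORD3A from siNT1 was 0.20 ± 0.20 with siGGGGGC at 24 h and -0.06 ± 0.20 with siGGGGGC at 48 h. With siGGCAGU at 48 h it was 0.38 ± 0.20. From the compared libraries alone, the SD of these differences was 0.02, 0.34 and 0.45. The value for siGGGGGC at 48 h ran from -0.31 to 0.17 when replicate 1 or 2 of siNT1 at 48 h was left out, so it has no settled direction, and the siGGCAGU value fell to 0.13 without replicate 1 of siGGCAGU. SNORD3A was lower with siGGGGGC than with siGGCAGU at 48 h by -0.45 ± 0.20, without overlap, but by -0.20 without replicate 1 of siGGCAGU. siNT1 at 48 h differed from 24 h by -0.58 ± 0.20, and by -0.38 without replicate 1 of siNT1 at 48 h. Per kilobase of annotated transcript, RN7SL2 lay between 411 and 971 per 1000 on the mRNA scale and SNORD3A between 182 and 366. These values depend on the annotated length, which is 699 bases for SNORD3A but 217 for its copy SNORD3D. They therefore do not rank the 2 RNAs.

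**Figure D1:**
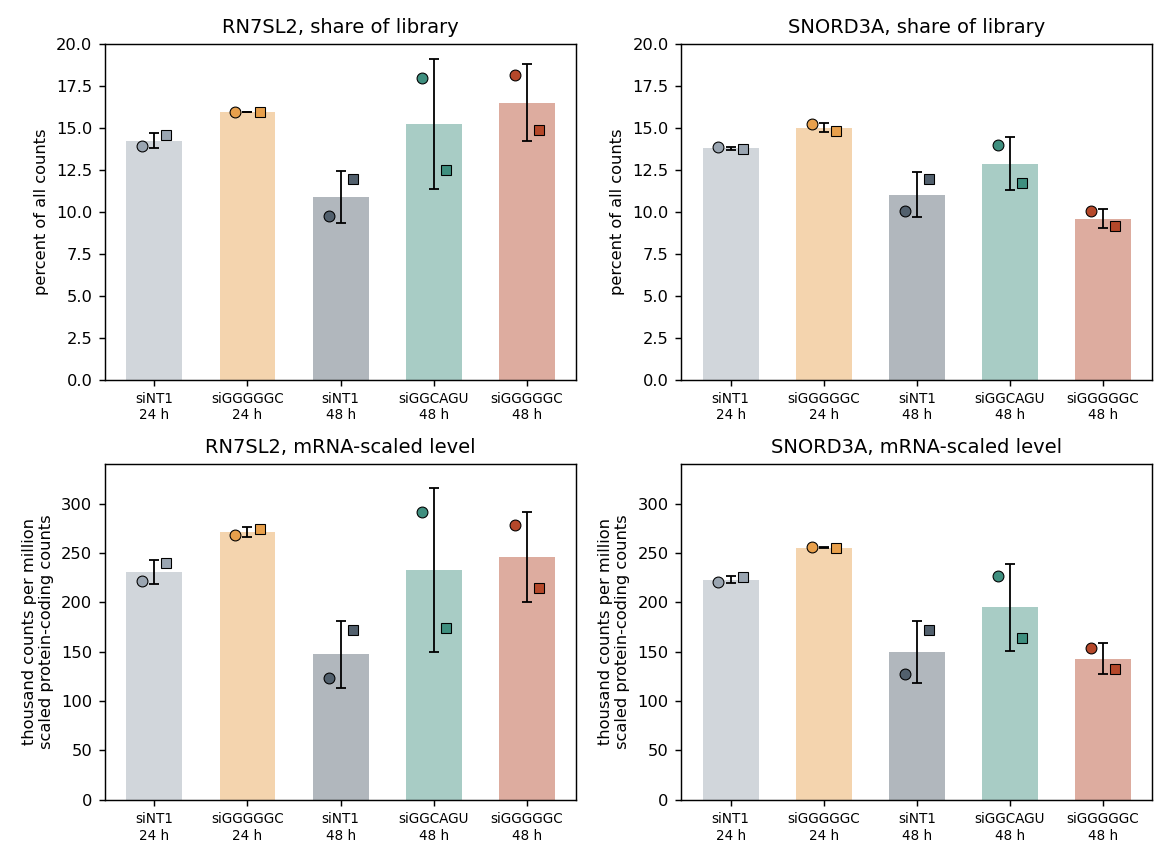
RN7SL2 and SNORD3A in each of the 10 libraries, as percent of all counts (top) and as counts per 1000 scaled protein-coding counts (bottom). Circles are replicate 1 and squares replicate 2, bars are group means and lines the SD (n = 2); RN7SL2 stood at 16.5% with siGGGGGC at 48 h against 10.9% with siNT1, while SNORD3A stood at 9.60% against 11%.

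Summed over the 7 members, the mRNA-scaled level differed from siNT1 by 0.22 in log2 with siGGGGGC at 24 h, by 0.39 with siGGGGGC at 48 h and by 0.53 with siGGCAGU at 48 h. Without replicate 1 of siNT1 at 48 h the last 2 values were 0.14 and 0.29. The siGGGGGC value was 0.18 without replicate 1 of siGGGGGC, and the siGGCAGU value 0.18 without replicate 1 of siGGCAGU. With library totals in place of the mRNA scale, the siGGGGGC sum at 48 h was 0.25, the siNT1 time difference was -0.36 for the sum, -0.39 for RN7SL2 and -0.32 for SNORD3A, and the siGGCAGU difference of SNORD3A was 0.22. siGGGGGC differed from siGGCAGU by -0.13 (from -0.41 to 0.20 when a siGGCAGU library was left out), and siNT1 at 48 h from 24 h by -0.61. The siGGGGGC effect was larger at 48 h than at 24 h by 0.18, and -0.07 without replicate 1 of siNT1 at 48 h. These comparisons share siNT1 libraries. Between the libraries of a group, RN7SL2 differed by 0.04 to 0.11 in log2 at 24 h and by 0.38 to 0.74 at 48 h. The differences at 48 h were larger than those of 95.8% to 98.5% of 9982 well counted genes (mean count 100 or more), and for SNORD3A larger than those of 88.1% to 94.3%.

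Of the 2 members tested in the fit across 16905 genes, RN7SL2 was called higher (adjusted p below 0.05) with siGGGGGC at 48 h, a comparison that called 27% of genes higher and 28.3% lower. It was also called higher with siGGCAGU at 48 h, with 27.5% of genes called higher and 25.1% lower. No member was called with siGGGGGC at 24 h (9.75% of genes higher, 9.15% lower), between siGGGGGC and siGGCAGU (26.2% higher, 28.1% lower) or between siNT1 at 48 h and 24 h (8.39% higher, 8.59% lower). As the members were chosen on these values, nothing is read from the counts.

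Ratios of counts within a library do not depend on the scaling. RN7SL2 had 1.00 and 1.06 counts per SNORD3A count with siNT1 and 1.05 and 1.08 with siGGGGGC at 24 h. At 48 h the ratio was 0.969 and 0.999 with siNT1, 1.29 and 1.06 with siGGCAGU, and 1.81 and 1.62 with siGGGGGC. The siGGGGGC libraries at 48 h thus stood above the other 8, and the lower of them above the higher siGGCAGU library. Against RN7SL3, its close copy, RN7SL2 had 29.0 and 28.5 counts per count with siNT1 and 32.8 and 33.1 with siGGGGGC at 24 h. At 48 h the values were 23.9 and 25.4 with siNT1, 26.6 and 23.4 with siGGCAGU, and 46.1 and 46.5 with siGGGGGC. Whether the split of shared reads between the 7SL copies moved with the treatment was not tested.

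**Figure D2:**
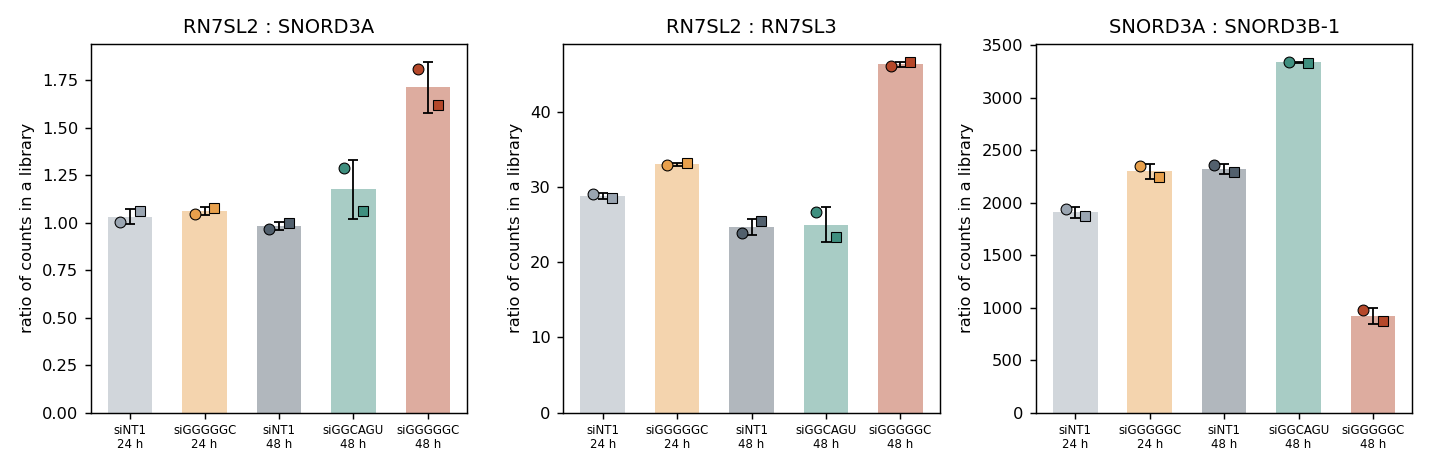
Ratios of raw counts within each library for RN7SL2 to SNORD3A, RN7SL2 to RN7SL3 and SNORD3A to SNORD3B-1. Circles and squares are replicates 1 and 2, bars the group means and lines the SD (n = 2); with siGGGGGC at 48 h the ratios were 1.72, 46.3 and 921, against 0.984, 24.6 and 2322 with siNT1.

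The near-identical copies were not members, so they were tested. Of 7 copies listed, 6 passed the filter, and SNORD3D was at 0. With siGGGGGC at 48 h, 2 of the 6 rose, near the 27% of all genes called higher, and none fell, beside 28.3% of all genes. Both that rose were U3 genes. SNORD3B-1 was at 53.9 and 75.1 mRNA-scaled CPM with siNT1, 67.8 and 49.1 with siGGCAGU, and 158 and 152 with siGGGGGC. It rose by 1.26 ± 0.14 in log2 (adjusted p = 2.02e-06, edgeR) with siGGGGGC. SNORD3B-2 was at 41.0 and 52.3 with siNT1 and at 79.8 and 72.9 with siGGGGGC, a rise of 0.71 ± 0.14 (adjusted p = 0.000491). SNORD3C, the closest in sequence to SNORD3A, was at 127 and 161 with siNT1 and at 133 and 103 with siGGGGGC (log2 difference -0.29, adjusted p = 0.123, edgeR). That value rested on single libraries: it was called at -0.49 without replicate 1 of siNT1 and at -0.52 without replicate 1 of siGGGGGC, and was -0.11 and -0.12 without replicate 2 of either. At 24 h SNORD3B-1 was at 114 and 120 with siNT1 and at 109 and 114 with siGGGGGC.

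SNORD3A therefore had 2357 and 2287 counts per SNORD3B-1 count with siNT1 at 48 h, 3341 and 3332 with siGGCAGU, and 974 and 868 with siGGGGGC. The SNORD3A to SNORD3C ratio varied less, from 1000 to 1277 over the 10 libraries. Both ratios contain a member and are given without a test.

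Among the 7SL copies, RN7SL3 was at 5.15 and 6.75 per 1000 on the mRNA scale with siNT1 at 48 h, 6.05 and 4.60 with siGGGGGC, and 11 and 7.45 with siGGCAGU. It rose with siGGCAGU by 0.63 ± 0.18 (adjusted p = 0.00737, edgeR), but not past the threshold without replicate 1 of siGGCAGU (0.32) or of siNT1 (0.42). With siGGGGGC its log2 difference was -0.16 ± 0.18 (adjusted p = 0.462, edgeR). RN7SL4P and RN7SL5P, processed copies, rose with siGGCAGU by 0.43 and 0.40 (adjusted p = 0.00407 and 0.0127). Without replicate 1 of siGGCAGU these were 0.28 and 0.20, and the call was lost for RN7SL5P. With siGGGGGC at 48 h they were 0.24 and 0.18 higher in log2 and did not pass. The 677 listed 7SL copies other than RN7SL1, RN7SL2 and RN7SL3 took 0.0129% to 0.0158% of a library in all. With siGGGGGC at 24 h RN7SL4P rose by 0.35 (adjusted p = 0.0384, edgeR), a call lost without any one of the 4 libraries at 24 h.

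**Figure D3:**
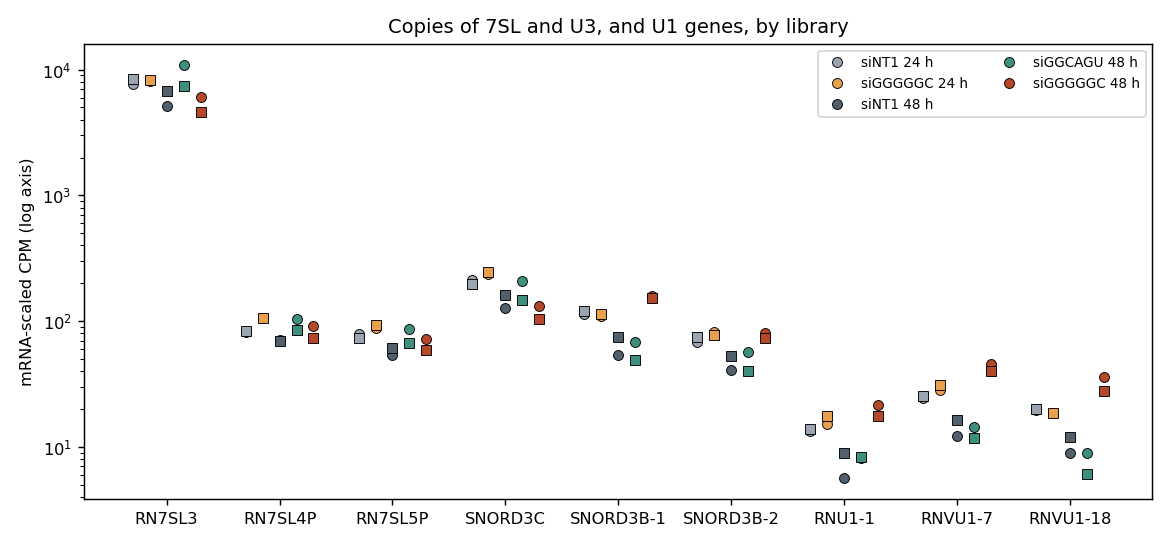
mRNA-scaled CPM (log axis) of the 7SL copies, the U3 copies and 3 U1 genes in each library. Circles are replicate 1 and squares replicate 2; the siGGGGGC libraries at 48 h were highest for SNORD3B-1 (158 and 152), RNVU1-7 and RNVU1-18, and not for RN7SL3 or SNORD3C.

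Of 46 other small structural RNAs listed, 33 were tested, and 9 were at 0 in all libraries. With siGGGGGC at 48 h, 12 rose and 6 fell, beside 27% of all genes called higher and 28.3% lower. The median log2 change was 0.18, against -0.03 over all genes tested. The largest rises were of U1 genes, which encode the spliceosomal RNA that recognises the 5′ splice site. RNVU1-18 was at 8.91 and 11.9 mRNA-scaled CPM with siNT1 and 36.0 and 28.0 with siGGGGGC, a rise of 1.60 ± 0.17 (adjusted p = 6.8e-07, edgeR). RNVU1-7 went from 12.2 and 16.4 to 45.2 and 40.3, a rise of 1.57 ± 0.14 (adjusted p = 9.81e-08). RNU1-1, named after its values were seen, rose by 1.4 ± 0.17 (adjusted p = 4.9e-06). U1 genes are near-identical too, so their split is uncertain.

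RNU5E-1 and RNU5A-1, U5 genes of the same spliceosome, rose by 0.84 and 0.68 with siGGGGGC at 48 h (adjusted p = 9e-07 and 0.000141, edgeR). SNORA74A, a box H/ACA small nucleolar RNA, fell by 0.82 (adjusted p = 0.000349). RNU6ATAC, the U6 RNA of the minor spliceosome, fell by 0.90 (adjusted p = 0.000538, edgeR), with -1.45 and -0.52 when either siGGGGGC library was left out. RNU6-7 fell by 0.90 on 18 to 62 counts in the 4 libraries (adjusted p = 0.0204), a call lost without replicate 1 of siNT1 or replicate 2 of siGGGGGC.

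With siGGCAGU at 48 h, 9 of the 33 rose and 2 fell, beside 27.5% of all genes called higher and 25.1% lower. The median was 0.25, against 0.02 over all genes. RNU6-9 rose by 1.01 (adjusted p = 0.000161, edgeR) and RNU6-1 by 0.58 (adjusted p = 0.0262), the second not without replicate 1 of siNT1 or replicate 2 of siGGCAGU (0.29). RNU6-7 and RNU6-8, further U6 genes, were at -0.59 and -0.30 and not called. The split of reads between the U6 genes, or between the U5 genes, was not tested. RNU4ATAC fell by 0.75 (adjusted p = 9.49e-05), and RNVU1-18 by 0.51 (adjusted p = 0.0299), which was lost without replicate 2 of siNT1 (-0.29) or of siGGCAGU (-0.26). With siGGGGGC at 24 h, 3 of the 33 rose and 2 fell, near the 9.75% of all genes called higher and 9.15% lower. RNU5E-1 rose by 0.55 and RNU5A-1 by 0.40, and SNORA74A and RNU6-8 fell by 0.80 and 0.43 (adjusted p = 0.000523, 0.0268, 0.00215 and 0.0267). The calls of RNU5A-1 and RNU6-8 were lost without any one of the 4 libraries at 24 h. Between siNT1 at 48 h and at 24 h, 11 of the 33 fell and none rose, beside 8.59% of all genes called lower and 8.39% higher. The median was -0.33, against -0.03.

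The proteins that bind these RNAs were read from the same libraries. Their counts stand beside 27% of all genes called higher and 28.3% lower with siGGGGGC at 48 h, 27.5% and 25.1% with siGGCAGU, and 9.75% and 9.15% with siGGGGGC at 24 h. Of 8 signal recognition particle and receptor genes, 1 rose and 3 fell with siGGGGGC at 48 h, 2 rose and 3 fell with siGGCAGU, and none was called at 24 h in edgeR's test, where the smallest adjusted p was 0.121 for SRP19. The calls at 48 h were near the share of all genes called, and the medians were -0.01 with either siRNA, against -0.03 (siGGGGGC) and 0.02 (siGGCAGU) over all genes. SRP54, the GTPase that binds signal peptides, rose by 0.36 ± 0.09 with siGGGGGC (0.24 without replicate 1 of siNT1) and by 0.56 ± 0.09 with siGGCAGU (adjusted p = 0.00225 and 5.9e-05, edgeR). SRP72, which anchors on 7SL with SRP68, fell by 0.35 and 0.95 (adjusted p = 0.00151 and 8.2e-08). The receptor subunits SRPRA and SRPRB fell by 0.46 and 0.31 with siGGGGGC and by 0.50 and 0.62 with siGGCAGU. Of these 4 calls, only that of SRPRB with siGGCAGU held without each of the libraries in turn. SRP14, of the Alu domain, had a log2 change of 0.33 with siGGCAGU (adjusted p = 0.0489, edgeR) and of -0.002 without replicate 2 of siGGCAGU.

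The proteins of the U3 particle were mostly lower with siGGCAGU. Of 14 genes, 2 rose and 11 fell (median -0.55, against 0.02 over all genes), whereas with siGGGGGC 1 rose and 5 fell at 48 h and 4 rose and 2 fell at 24 h. FBL, the methyltransferase fibrillarin, fell by 0.97 ± 0.15 with siGGCAGU (adjusted p = 3.86e-05, edgeR) and was at -0.24 with siGGGGGC (adjusted p = 0.164, edgeR). The siGGCAGU libraries lay apart for FBL, at 155.6 and 244.3 mRNA-scaled CPM, both below the 382.5 and 400.8 with siNT1 at 48 h. NOP56, a core box C/D protein, fell by 0.86 and 1.04 with siGGGGGC and siGGCAGU at 48 h (adjusted p = 3.66e-07 and 3.87e-08). IMP4, which helps U3 pair with the precursor, fell by 1.10 with siGGCAGU and was at -0.05 with siGGGGGC (adjusted p = 5.02e-08 and 0.65, edgeR). RRP9, which binds U3 itself, fell by 0.66 and 0.40 at 48 h (adjusted p = 2.75e-05 and 0.00239, edgeR). With siGGGGGC at 24 h, RRP9 and IMP4 were called higher, by 0.29 and 0.33. Neither call held without each library in turn. NUFIP1 and the cofactors RUVBL1 and RUVBL2 help to assemble the particle. NUFIP1 fell by 0.50 at 24 h and 0.74 at 48 h with siGGGGGC, and RUVBL2 rose by 0.88 and 0.70. RUVBL1 rose by 0.44 with siGGGGGC at 24 h and by 0.59 with siGGCAGU. MPHOSPH10 fell by 0.52 with siGGGGGC at 24 h.

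Among 7 genes of the 7SK particle and P-TEFb, 3 rose and 2 fell with siGGGGGC at 48 h and 2 rose and 2 fell with siGGCAGU, near the share over all genes, with medians of 0.06 and -0.01. MEPCE, the methyltransferase that caps 7SK, went from 30.2 and 29.5 mRNA-scaled CPM with siNT1 to 11.8 and 11 with siGGGGGC, a fall of 1.39 ± 0.14 (adjusted p = 4.72e-07, edgeR), and fell by 0.50 with siGGCAGU (adjusted p = 0.00422), or by 0.32 to 0.77 when 1 of the siGGCAGU libraries was left out. CDK9, the kinase of P-TEFb, fell by 0.78 with siGGGGGC (adjusted p = 0.000586), while CCNT1 and CCNT2, its cyclins, rose by 0.61 and 0.75 (adjusted p = 2.45e-05 and 2.48e-06). HEXIM2, an inhibitor of P-TEFb, rose by 0.93 with siGGGGGC and by 0.67 with siGGCAGU (adjusted p = 0.00612 and 0.0414). The first call was lost without replicate 2 of siGGGGGC (0.55) or of siNT1 (0.78), and the second without any one of the 4 libraries compared. LARP7, which binds 7SK, and HEXIM1 did not pass in any comparison with siNT1 (log2 from -0.32 to 0.06, smallest adjusted p = 0.174, edgeR). With siGGGGGC at 24 h 1 of the 7, CCNT2, was called, at 0.29 (adjusted p = 0.0344, edgeR), and not without any one of the 4 libraries.

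Of 11 protein genes of RNase P and RNase MRP, 10 were tested. With siGGGGGC at 48 h 3 rose and 4 fell, with siGGCAGU 1 rose and 3 fell, and with siGGGGGC at 24 h 2 rose. The medians were 0.09, 0.02 and -0.03, against -0.03, 0.02 and -0.02 over all genes. POP5 fell by 1.13 ± 0.10 with siGGGGGC (adjusted p = 1.93e-07, edgeR) and was at 0.04 with siGGCAGU, whereas RPP14 and RPP30 rose by 0.78 and 0.75 with siGGGGGC (adjusted p = 3.98e-06 and 1.03e-05). POP1, the largest subunit, fell by 0.31 with siGGGGGC and by 0.49 with siGGCAGU (adjusted p = 0.0102 and 0.000293), the former not without replicate 2 of siGGGGGC. POP7 rose by 0.58 with siGGGGGC at 24 h (0.38, and not called, without replicate 1 of siNT1), as did POP4 by 0.42, and POP7 fell by 0.73 with siGGCAGU. RPP21 had 9 and 30 counts with siNT1 and 2 and 3 with siGGGGGC at 48 h (adjusted p = 0.013, edgeR, lost without any of these libraries but replicate 1 of siNT1). RPP25 had 0 to 14 counts and was not tested.

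All 9 telomerase protein genes were called with siGGCAGU, 8 of them lower (median -0.72, against 0.02 over all genes). With siGGGGGC at 48 h 4 fell and none rose, and at 24 h 2 rose. DKC1, the dyskerin pseudouridine synthase, fell by 0.87 ± 0.11 with siGGGGGC and by 1.08 ± 0.11 with siGGCAGU (adjusted p = 4.74e-06 and 4.35e-07, edgeR). NAF1, an assembly factor, fell by 1.23 with siGGCAGU and was at 0.00 with siGGGGGC (adjusted p = 5.8e-05 and 0.995, edgeR). TERT, the catalytic subunit, had 13 and 7 counts with siNT1 at 48 h, 0 and 1 with siGGCAGU and 0 and 2 with siGGGGGC (adjusted p = 0.0123 and 0.0359, edgeR). Both TERT calls were lost without replicate 1 of siNT1 at 48 h, and each also without replicate 1 of its own siRNA group. NOP10 was the gene called higher with siGGCAGU (0.38, adjusted p = 0.0416, edgeR), with no call without replicate 1 of siNT1 (0.12) or of siGGCAGU (0.15). WRAP53 and NHP2 rose by 0.43 and 0.37 with siGGGGGC at 24 h.

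Of 33 genes of the RNA polymerase III machinery, 6 rose and 15 fell with siGGGGGC at 48 h, 9 rose and 11 fell with siGGCAGU, and 4 rose and 5 fell with siGGGGGC at 24 h. The siGGCAGU counts were near the share over all genes, and the medians were -0.05, -0.17 and -0.03. POLR2E and POLR2K, subunits that RNA polymerase III shares with other polymerases, were not on this list. As given above, both fell with siGGGGGC, but the study had picked them for such a fall. They are therefore not ranked against the genes of the list. At 24 h POLR2E was at 105 and 110 mRNA-scaled CPM with siNT1 and at 33.25 and 34.92 with siGGGGGC. POLR2K was at 335 and 342 with siNT1 and at 97.6 and 90.4 with siGGGGGC. The subunit POLR3G moved apart under the 2 seeds. It was at 79.2 and 89.9 mRNA-scaled CPM with siNT1, 42.3 and 39.9 with siGGGGGC, and 187 and 160 with siGGCAGU, a fall of 1.04 ± 0.10 and a rise of 1.03 ± 0.10 (adjusted p = 3.53e-07 and 2.26e-07, edgeR), and siGGGGGC against siGGCAGU gave -2.08. SNAPC5, of the snRNA activating complex, fell by 0.95 with siGGGGGC (adjusted p = 3.77e-06) and SNAPC1 by 1.33 with siGGCAGU (adjusted p = 5.75e-06). GTF3C6, of the factor TFIIIC, fell by 0.73 and 1.57 (adjusted p = 7.97e-05 and 2.64e-08). ZNF143, an activator of small RNA genes, rose by 0.94 and 0.63 (adjusted p = 4.98e-07 and 3.36e-05), and POLR3F rose by 0.63 with siGGGGGC. MAF1, the repressor of RNA polymerase III, fell by 0.71 and 0.80 (adjusted p = 4.82e-06 and 1.36e-06). POLR3A, the largest subunit, BRF1 and SSB, the La protein, did not pass at 48 h (log2 from -0.22 to 0.23, smallest adjusted p = 0.0727, edgeR). At 24 h POU2F1 and BRF1 rose by 0.69 and 0.52, the second not without any one of the 4 libraries, and GTF3C6 and GTF3C2 fell by 0.49 and 0.44. Of the protein genes of all lists named at 24 h, RUVBL2 and POU2F1 kept their calls without each library in turn, and the others did not.

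**Figure D4:**
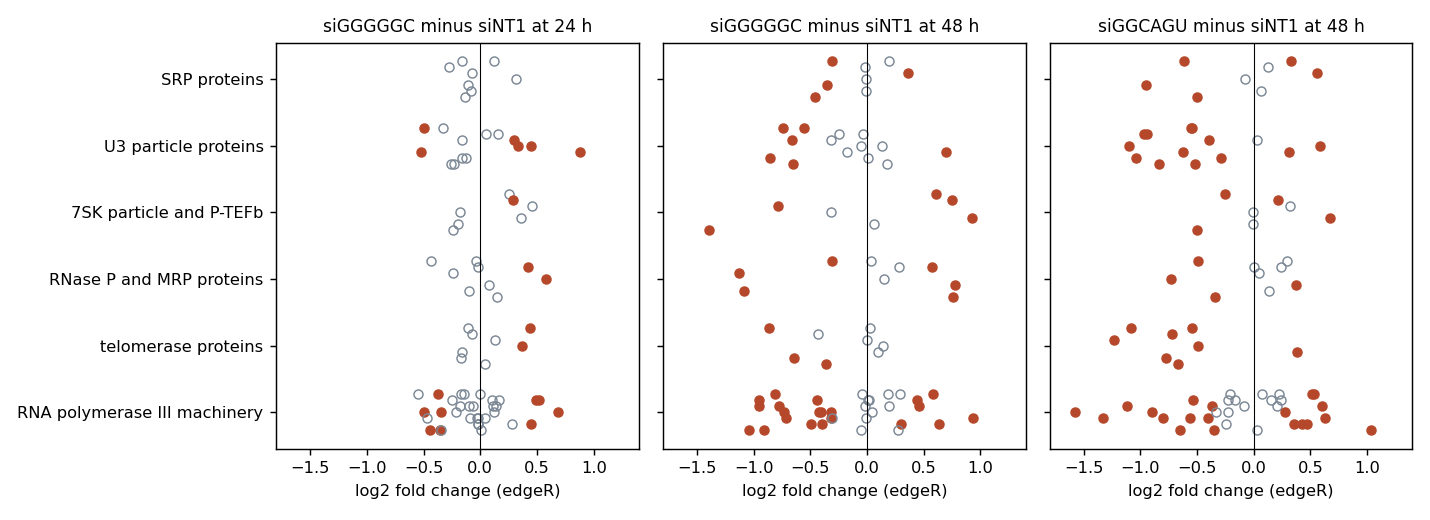
Log2 fold change against siNT1 (edgeR) of the protein genes that bind or transcribe these RNAs, 1 point a gene and 1 panel a comparison; filled points have an adjusted p below 0.05. TERT and RPP21, with few counts, are left out, and POLR2E and POLR2K are on none of these lists. With siGGCAGU 11 of 14 U3 particle genes and 8 of 9 telomerase genes were called lower, TERT included in the count.

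The genes whose mRNA-scaled log2 CPM followed RN7SL2 most closely over the 10 libraries, among 9981 well counted genes, were CCDC167, ASNSD1 and ECI2 (Pearson r = 0.97, 0.96 and 0.95). For SNORD3A they were SMU1, its own copy SNORD3C, and OSGEP (r = 0.98, 0.97 and 0.97). The points share libraries, scaling and 5 group means, so r describes these 10 libraries and no p is given.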

How the data were processed

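Total RNA of HeyA8 cells was depleted of ribosomal RNA and sequenced as paired ends, with a lower limit on fragment length per the labels. The authors trimmed reads with Trimmomatic, aligned them to hg38 and used htseq to assign exonic reads to Ensembl genes, and deposited raw counts per gene for each library, whole numbers without normalization. The study's methods name TopHat or STAR, and the submitters' processing notes name TopHat, Bowtie2, HTSeq and DESeq2. The strand setting was not given in the sources used here. With default options htseq does not count reads of ambiguous place or gene, which can lower near-identical and overlapping genes. Whether this bore on the counts of the members was not tested. 4 deposited tables of the authors' own comparisons (mean normalised counts, fold changes and p-values) were not used.

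Genes were matched to GENCODE release 44 (98.9% of 58395 identifiers), the source of gene models and biotypes; there were 0 entries that name no gene. Library size was the sum of nuclear protein-coding counts with TMM factors over protein-coding genes. filterByExpr kept 16905 genes. The quasi-likelihood F test of edgeR 4.0.16 (R 4.3.3) was fitted to all 10 libraries with 5 groups as a factor, leaving 5 residual degrees of freedom, and p-values were adjusted by Benjamini-Hochberg over all genes tested; a gene was called at an adjusted p below 0.05. SE is the fold change divided by the root of F. It rests on a spread estimated over all 10 libraries and not on the compared groups alone. With 2 libraries a group no permutation of labels can reach 0.05, so none was run. The fit was also run on counts simulated with the same spread for every gene and group. Such counts do not show how it behaves where groups differ in spread, as they do here. The members, lists and tests were chosen with earlier results of these data known.

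Genes named are the members; of each protein list and of the other small structural RNAs the 2 largest rises and falls called in each comparison with siNT1; 19 genes fixed by name (SRP54, SRP14, RRP9, FBL, LARP7, MEPCE, HEXIM1, CDK9, POP1, RPP25, TERT, DKC1, POLR3A, POLR3G, BRF1, MAF1, SSB, POLR2E and POLR2K); the 3 genes most like each tested member; and the copies. Ribosomal RNA genes were read for levels only: MT-RNR1, MT-RNR2 and RNA5S1 were at 0, and RNA5S9 had 0 to 68 counts. Pseudogene families and count ratios were added after seeing the data. Alternatives were other scalings (TMM over all genes, library totals, totals without RN7SL2 and SNORD3A), DESeq2 1.42.0, filters, the call rule, the libraries compared alone, a replicate block, and each library left out. Some sequences and 1 marker gene that were read are not reported here.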

Additional observations from a re-analysis of the deposited data

Results flagged for a closer look

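For 27 of the named genes that are no member, the siGGGGGC effect against siNT1 differed between 48 h and 24 h by the interaction term of the edgeR fit (adjusted p below 0.05 over all genes tested). Many of these genes were named for a large change at 24 h or 48 h, so their number is not set against the 13.5% of all genes with a higher and the 15.1% with a lower effect at 48 h. The differences of log2 fold changes (48 h minus 24 h) were positive for 11. They were 1.70 for RNVU1-18, 1.31 for RNVU1-7 and 0.81 for RNU6-9 among the small RNAs, and 1.34 for SNORD3B-1 and 0.56 for SNORD3B-2 among the U3 copies. Among the proteins they were 0.95 for ZNF143, 0.70 for RPP14, 0.61 for RPP30, 0.46 for CCNT2, 0.44 for SRP54 and 0.36 for CCNT1.

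The other 16 were negative. They were -1.70 for RNU6-7 and -0.85 for RNU6ATAC among the small RNAs. For the 7SK particle they were -1.23 for CDK9 and -1.15 for MEPCE, and for the U3 particle -0.96 for RRP9, -0.69 for NOP56 and -0.38 for IMP4. For RNA polymerase III they were -1.11 for POU2F1, -1.05 for POLR3G, -0.70 for SNAPC5, -0.69 for MAF1 and -0.47 for GTF3C2. The remaining values were -0.88 for POP5, -0.76 for DKC1, -0.43 for SRPRB and -0.41 for WRAP53. For the members the same difference was 0.51 for RN7SL2 and -0.26 for SNORD3A, given without a test. Without replicate 1 or 2 of siNT1 at 48 h these were 0.25 and 0.76 for RN7SL2 and -0.50 and -0.03 for SNORD3A.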

How the results depend on the processing

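Of 3500 repeats of the 195 called values of named genes under the alternatives, 3143 stayed called in the same direction, 356 lost the call and 1 changed direction: SRP14 with siGGCAGU was at -0.002 without replicate 2 of siGGCAGU at 48 h, and at 0.567 without replicate 1. Of 3373 repeats of values not called, 157 became called. Counts of genes called (3195 with siGGGGGC at 24 h, 9339 at 48 h, 8888 with siGGCAGU, 9188 between the 2, 2870 between the siNT1 times, 4847 for the interaction) became 627, 3643, 3436, 3883, 256 and 1892 with a log2 change beyond 1 also required. With siGGGGGC at 24 h, 5188 genes were called from its 4 libraries alone. With 1 library left out that count was 1487 to 3797, and between the siNT1 times 457 to 3911.

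With library totals without factors the median of all genes was -0.17 with siGGGGGC and -0.13 with siGGCAGU at 48 h and 0.23 between the siNT1 times, against -0.03, 0.02 and -0.03 on the mRNA scale. Between the siNT1 times 2744 genes were called higher and 179 lower, against 1418 and 1452. With siGGGGGC at 24 h 782 were called higher and 1413 lower, against 1648 and 1547. At 48 h it called 3237 higher and 5340 lower with siGGGGGC, against 4562 and 4777, and 3257 and 4769 with siGGCAGU, against 4643 and 4245. At 24 h this scaling put the sum of members at 0.14 and SNORD3A at 0.12, the latter being 0.22 with TMM over all genes and with DESeq2.

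Of the lists with siGGGGGC at 24 h, library totals gave 3 U3 particle genes, 0 of the 7SK particle, 1 of RNase P and MRP, 0 telomerase genes, 4 of RNA polymerase III, 0 copies and 3 other small RNAs. The 4 libraries alone gave 3 SRP genes, 10 of U3, 4 of 7SK, 4 of RNase P and MRP, 17 of RNA polymerase III, 3 copies and 10 other small RNAs. TMM over all genes, totals without RN7SL2 and SNORD3A, and a mean count of at least 50 gave 2 of 7SK. With 1 library left out, the counts were 0 to 1 for SRP, 1 to 9 for U3, 0 to 3 for 7SK, 0 to 2 for RNase P and MRP, 0 to 2 for telomerase, 2 to 12 for RNA polymerase III, 0 to 1 for the copies and 2 to 6 for the other small RNAs.

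With siGGCAGU, 7SK particle genes numbered 2 with library totals, with the replicate block and with DESeq2, 1 without the filter and with its libraries alone, where 1 copy and 6 other small RNAs were called. With 1 library left out there were 1 to 4 of 7SK and 3 to 6 SRP genes, and with siGGGGGC at 48 h 2 to 4 SRP genes and 2 to 4 copies. The replicate numbers do not pair the libraries: deviations of libraries with the same number correlated from -0.09 to 0.03 over 10 pairs of groups. A replicate block gave 2823, 9098, 8652, 8943, 2365 and 4474 called genes in the order above. The spread of RN7SL2 and SNORD3A between libraries at 48 h was wider than the counting error of their shares and limits what these data resolve. The assignment of shared reads, which was not tested, limits it too.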
